A study of Mus musculus with 18 samples.

Results

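The genes described here make up the growth hormone and IGF axis of the liver. They are 10 genes chosen by symbol, namely Ghr, Stat5a, Stat5b, Socs2, Igf1, Igfals, Igfbp1, Igfbp2, Igfbp3 and Igfbp4, out of 21018 genes measured in at least 1 of the 3 tables of the study. All 10 were present in all 3 tables and none was lost to the filter on low values, which kept genes above 0 in at least 1 library of a kit. RNA-Seq was performed on liver RNA of 6 mice, and the RNA of each mouse was prepared with 3 library kits, which gave 18 libraries. The mice were male C57/B6J animals of 12 weeks. Mice ILB_9579, ILB_9582 and ILB_9583 received 20 µg/kg of IL-1β and mice UNT_9574, UNT_9575 and UNT_9576 received saline, and livers were taken after 4 h. TruSeq is a stranded poly(A) kit used here with 200 ng of RNA and reads of 125 bp, Pico is a stranded total RNA kit used with 1.7 to 2.6 ng and reads of 150 bp, and V4 is an unstranded poly(A) kit used with 0.8 to 1.3 ng and reads of 150 bp. Sequencer and sequencing date were not the same for all kits, and the effect of the kit and that of the sequencing run cannot be told apart. Libraries of 1 mouse in several kits are aliquots of the same RNA, and the replicates of a treatment are the 3 mice.

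Growth hormone from the pituitary binds its receptor, Ghr, on hepatocytes, and the kinase Jak2 then phosphorylates the transcription factors Stat5a and Stat5b. These factors drive transcription of Igf1, which encodes the growth factor IGF-I, of Igfals, which encodes the acid-labile subunit that keeps IGF-I in the circulation, and of Socs2, which encodes an inhibitor of the receptor. IGF-I travels in blood bound to IGF binding proteins, of which IGFBP-3 forms a ternary complex with IGF-I and the acid-labile subunit, while Igfbp1 is a hepatic gene that insulin represses. The comparison of IL-1β with saline asks how an inflammatory cytokine changes the transcripts of this axis, and its repetition in 3 kits asks whether the change depends on the library preparation.

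After IL-1β the transcripts of Ghr, Igfals and Igfbp4 were lower and those of Socs2 and Igfbp1 were higher in all 3 kits. A gene was called when its q-value, the Benjamini-Hochberg adjusted p-value of limma-voom over all genes tested in a kit, was at most 0.05. In TruSeq 2 members were higher and 6 lower, where 12.3% of all genes were called higher and 21.8% lower. In Pico 2 were higher and 4 lower, beside 6.78% and 10.8% of all genes. In V4 2 were higher and 3 lower, beside 3.6% and 7.41% of all genes. The median log2 fold change of the 10 members was -0.45 in TruSeq, -0.43 in Pico and -0.53 in V4, while that of all genes tested was -0.17, -0.12 and -0.22. With TMM factors in place of library totals the median of all genes moved up by 0.16, 0.13 and 0.17. Of the members 4, 3 and 1 were then called lower, with the same 2 called higher in every kit. In both directions together TMM factors called 6368 of 19424 genes in TruSeq, 3136 of 18108 in Pico and 1738 of 18051 in V4. Values below are read counts per gene, and the counts of a library summed to 12348864 to 12858237 in TruSeq, 4024632 to 4134070 in Pico and 12013453 to 12352473 in V4, so counts within a kit can be set side by side.

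**Figure D1:**
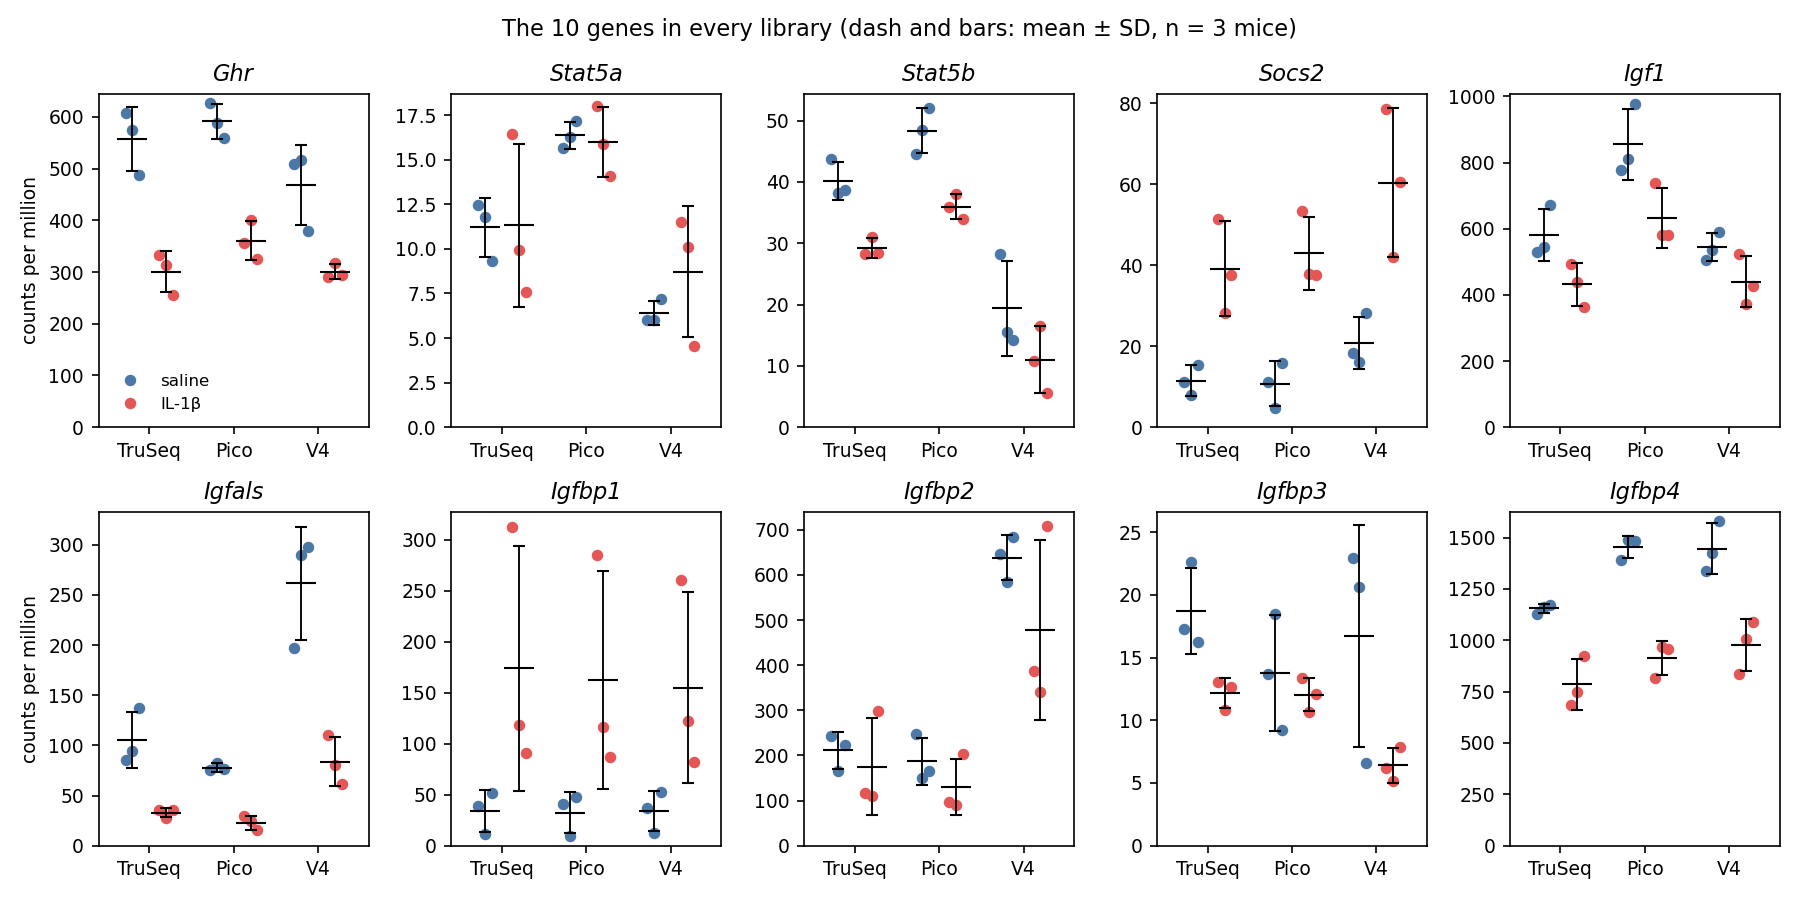
CPM, the counts scaled to a common library total (linear axes from 0), of the 10 genes in each of the 18 libraries, by kit, with saline mice in blue and IL-1β mice in red. The dash and bars give the mean ± SD of 3 mice, and the Socs2 and Igfbp1 points of IL-1β mice lie above, and the Ghr, Igfals and Igfbp4 points below, all saline points of the same kit.

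The values of the 2 groups did not overlap for 8 members in TruSeq, of which 2 were higher and 6 lower, while 17.1% and 27.9% of all genes were separated upwards and downwards in that kit. In Pico 2 members were separated upwards and 5 downwards, beside 12.6% and 18.6% of all genes. In V4 it was 2 upwards and 3 downwards, beside 9.09% and 18.6% of all genes. In a liver sample fewer cells of a type and less RNA per cell cannot be told apart. The libraries carried the markers of hepatocytes, the cells that make most of these products: a list of 10 hepatocyte genes summed to 102386 to 120885 CPM in saline and 78862 to 82054 in IL-1β libraries of TruSeq. Of these 10 genes 6 were lower and 1, Tat, was higher in TruSeq, 8 were lower and 2 higher in Pico, and 5 were lower and 1 higher in V4, and none was at 0 in any group. The part of this shift in the lower values of Ghr, Igf1, Igfals and Igfbp4 was not tested.

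Ghr encodes the growth hormone receptor and lies on the minus strand at chr15:3267760-3533492 of mm9 (ENSMUSG00000055737). In TruSeq its counts were 4141, 3863 and 3178 in IL-1β mice ILB_9579, ILB_9582 and ILB_9583 and 7685, 7353 and 6269 in saline mice UNT_9574, UNT_9575 and UNT_9576. In Pico they were 1443, 1612 and 1314 after IL-1β and 2558, 2425 and 2312 after saline, in the same order of mice, which is kept from here on. In V4 they were 3530, 3820 and 3549 against 6114, 6258 and 4693. Every IL-1β mouse was below every saline mouse in each kit. On the log2 scale the fold change was -0.89 ± 0.124 (SE) in TruSeq with a q-value of 0.000525, -0.72 ± 0.0969 in Pico with a q-value of 6.23e-05 and -0.63 ± 0.153 in V4 with a q-value of 0.0243. These correspond to 0.54, 0.609 and 0.647 times the saline level. The V4 call was lost with TMM factors, where the q-value was 0.114, with edgeR's quasi-likelihood test (0.0999) and with DESeq2 (0.0636). It was also lost when any 1 mouse except saline mouse UNT_9576 was left out, with q-values of up to 0.111.

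Stat5a and Stat5b encode the transcription factors that carry the receptor's signal, and the 2 genes are neighbours on chromosome 11, transcribed away from each other, with 8626 bases between Stat5b (chr11:100642045-100712038, minus strand, ENSMUSG00000020919) and Stat5a (chr11:100720665-100746483, plus strand, ENSMUSG00000004043). Stat5b counts in TruSeq were 350, 383 and 352 after IL-1β and 554, 488 and 497 after saline. In Pico they were 145, 153 and 137 against 182, 200 and 215. In V4 they were 132, 199 and 68 against 340, 188 and 176. The groups were separated in TruSeq and Pico, whereas in V4 the count of IL-1β mouse ILB_9582 exceeded those of saline mice UNT_9575 and UNT_9576. Its log2 fold change was -0.46 ± 0.107 in TruSeq and passed the limma-voom threshold with a q-value of 0.00864, although DESeq2 gave 0.0677. It was -0.43 ± 0.172 in Pico and -0.87 ± 0.408 in V4, and neither was called, with q-values of 0.104 and 0.213.

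Stat5a was near the same level in both treatments in TruSeq and Pico. Its TruSeq counts were 204, 123 and 94 after IL-1β and 158, 151 and 120 after saline. Its Pico counts were 73, 64 and 57 against 64, 67 and 71, and its V4 counts were 140, 122 and 55 against 72, 73 and 89. The groups overlapped in each kit, and mouse ILB_9579 had the highest and mouse ILB_9583 the lowest count of the IL-1β mice in every kit. The log2 fold changes of -0.05 in TruSeq (95% confidence interval -0.62 to 0.52), -0.04 in Pico (-0.56 to 0.49) and 0.34 in V4 (-0.56 to 1.24) were not called, and the negative ones turned positive with TMM factors, at 0.11 and 0.095. Of the windows of 125 bases along the transcripts, 4.85% of those of Stat5a and 3.79% of those of Stat5b occur in the other gene, so a few reads could belong to either. The exons of Stat5a overlap those of Stat3 on the opposite strand by 72 bases, and V4 reads were counted without regard to strand. Whether Stat3 reads were counted for Stat5a was not tested.

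Socs2 encodes a suppressor of cytokine signalling that growth hormone induces and that limits signalling by the receptor (chr10:94847996-94879814, minus strand, ENSMUSG00000020027). In TruSeq its counts were 640, 348 and 468 after IL-1β and 141, 102 and 199 after saline. In Pico they were 216, 152 and 152 against 46, 20 and 66. In V4 they were 958, 506 and 730 against 219, 196 and 349. The lowest IL-1β mouse was above the highest saline mouse in each kit, mouse ILB_9579 being the highest of its group and mouse UNT_9575 the lowest of the other in all 3 kits. The transcript rose 3.41-fold in TruSeq (95% confidence interval 2.25 to 5.16), 4.38-fold in Pico (2.66 to 7.2) and 2.88-fold in V4 (1.83 to 4.52). The limma-voom q-values were 0.000821, 0.00029 and 0.00845. The V4 call was lost without saline mouse UNT_9575, with a q-value of 0.0608 and a log2 fold change of 1.36. A share of 2.61% of its windows of 125 bases also occurs in the gene Gm9847, so a small part of the reads is uncertain.

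Igf1 encodes IGF-I and lies at chr10:87321010-87399792 on the plus strand (ENSMUSG00000020053). TruSeq gave counts of 6119, 5411 and 4519 after IL-1β and 6694, 6953 and 8643 after saline. Pico gave 2983, 2340 and 2343 against 3169, 3338 and 4043, and V4 gave 6365, 4479 and 5130 against 6072, 6492 and 7284. The groups were separated in TruSeq and Pico, and in V4 the count of IL-1β mouse ILB_9579 lay above that of saline mouse UNT_9574. Igf1 had a log2 fold change of -0.43 ± 0.133 in TruSeq and -0.44 ± 0.107 in Pico, both called by limma-voom with q-values of 0.0304 and 0.00867, and -0.32 ± 0.15 in V4 with a q-value of 0.219. Both calls depended on the scaling, since with TMM factors the log2 fold changes were -0.27 and -0.30 with q-values of 0.144 and 0.0691. The TruSeq call also needed every mouse except ILB_9579, and the Pico call needed mice ILB_9582, ILB_9583 and UNT_9576, with q-values without any of these of up to 0.125 in TruSeq and 0.128 in Pico.

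Igfals, which encodes the acid-labile subunit, had the largest fall of the 10 members in each kit (chr17:25014600-25018955, plus strand, ENSMUSG00000046070). The core bound by STAT proteins, TTCNNNGAA, was searched for in the promoter windows of all members that had one, and an Igfals window that held it is shown. The 250 bases before a start site of Igfals in RefSeq (GRCm38.p6, chr17:24877594-24877843, plus strand) are printed here with the match in capitals.
Igfals promoter: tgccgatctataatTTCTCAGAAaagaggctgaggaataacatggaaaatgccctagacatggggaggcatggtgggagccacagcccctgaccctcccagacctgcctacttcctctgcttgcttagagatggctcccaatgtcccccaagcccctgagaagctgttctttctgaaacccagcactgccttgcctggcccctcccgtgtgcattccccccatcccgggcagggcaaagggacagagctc
The match, TTCTCAGAA, lies 236 bases upstream of this start site, and a second RefSeq start site of Igfals has TTCCTAGAA 58 bases upstream. Windows from 250 bases before to 50 bases after a start site were available for 9 of the 10 members, 15 windows in all, and these 2 windows of Igfals were the ones that held the core. Of all 32851 RefSeq windows 8.3% held it. The core reads alike on both strands, and a match describes letters and is no evidence of binding. The Igf1 window held no match and is not printed, and Socs2 had no window here.

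In TruSeq the Igfals counts were 438, 346 and 439 after IL-1β and 1077, 1208 and 1764 after saline. In Pico they were 118, 97 and 63 against 306, 340 and 315. In V4 they were 1338, 973 and 737 against 2364, 3509 and 3675. All IL-1β mice were far below all saline mice in each kit. The level fell to 0.317 times that of saline in TruSeq (95% confidence interval 0.239 to 0.421), 0.287 times in Pico (0.21 to 0.391) and 0.317 times in V4 (0.222 to 0.454). The limma-voom q-values were 0.000137, 1.58e-05 and 0.00159, and Igfals was the member called in every kit under all settings tried and with any 1 mouse left out. Igfals had a log2 fold change of -1.66 in TruSeq and Igf1 one of -0.43, so within the same livers the transcript of the carrier subunit fell by more than that of the growth factor, a difference that was not tested.

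**Figure D2:**
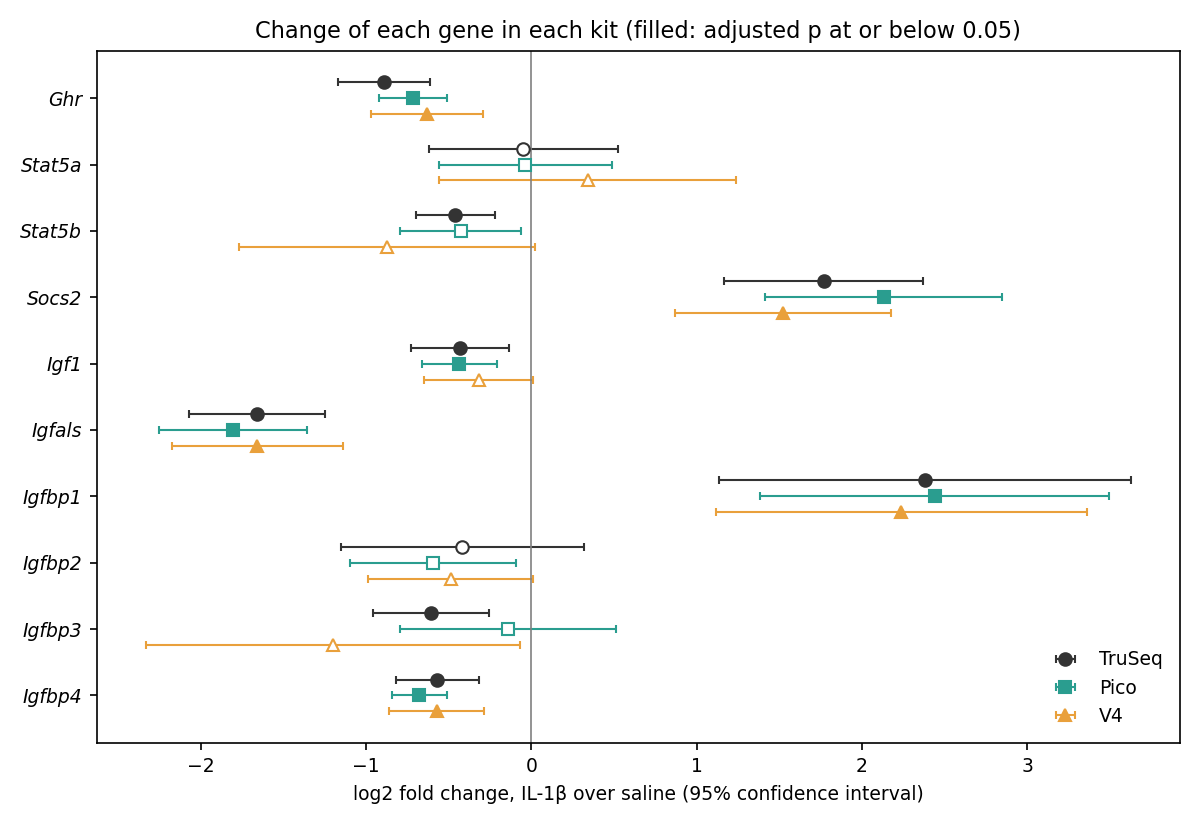
Log2 fold change of IL-1β over saline (x axis) with its 95% confidence interval for each gene (y axis) in TruSeq (circles), Pico (squares) and V4 (triangles), filled where the limma-voom q-value was at most 0.05. Socs2 and Igfbp1 lie right of 0 and Ghr, Igfals and Igfbp4 left of it with filled symbols in all 3 kits, whereas Stat5a and Igfbp2 have open symbols throughout.

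Igfbp1 rose more than any other member in each kit. It encodes a binding protein that the liver secretes in response to fasting, stress and loss of insulin action, and lies at chr11:7097785-7102549 on the plus strand (ENSMUSG00000020429). Its promoter is shown because insulin represses the gene through an insulin response sequence, whose core CAAAACA was searched for on both strands. The 250 bases before its RefSeq start site (GRCm38.p6, chr11:7197537-7197786, plus strand) are printed with the match in capitals.
Igfbp1 promoter: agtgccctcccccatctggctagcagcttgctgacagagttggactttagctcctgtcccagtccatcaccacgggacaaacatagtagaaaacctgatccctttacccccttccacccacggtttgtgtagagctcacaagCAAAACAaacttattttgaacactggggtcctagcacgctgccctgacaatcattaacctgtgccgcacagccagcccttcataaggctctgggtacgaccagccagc
The match begins 108 bases upstream of the start site. Igfbp1 was the member whose window held this core, which 6.28% of all windows held. The match is again a description of letters in this window.

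In TruSeq the Igfbp1 counts were 3877, 1465 and 1123 after IL-1β and 492, 150 and 670 after saline. In Pico they were 1152, 469 and 351 against 165, 38 and 197. In V4 they were 3170, 1480 and 986 against 448, 153 and 646. The groups did not overlap, but mice within a group differed by several fold, and they did so alike in the 3 kits: mouse ILB_9579 was highest and ILB_9583 lowest after IL-1β, and mouse UNT_9576 was highest and UNT_9575 lowest after saline. Igfbp1 rose 5.2-fold in TruSeq (95% confidence interval 2.19 to 12.3), 5.43-fold in Pico (2.61 to 11.3) and 4.72-fold in V4 (2.17 to 10.3). The limma-voom q-values were 0.00884, 0.00238 and 0.018. The call depended on single mice and was lost in all 3 kits without saline mouse UNT_9574. Without saline mouse UNT_9574 the q-value was 0.0519 in TruSeq, 0.0508 in Pico and 0.0622 in V4, without saline mouse UNT_9575 it was 0.0501 in TruSeq and 0.0896 in V4, and without IL-1β mouse ILB_9582 it was 0.0579 in Pico and 0.0627 in V4. The log2 fold change stayed between 1.64 and 2.88 whichever mouse was left out.

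Igfbp2 encodes a binding protein that the adult liver makes in quantity (chr1:72871077-72899048, plus strand, ENSMUSG00000039323). Its TruSeq counts were 1441, 1361 and 3704 after IL-1β and 3089, 2128 and 2876 after saline. Its Pico counts were 394, 361 and 817 against 1008, 616 and 683, and its V4 counts were 4721, 4116 and 8529 against 7768, 7062 and 8444. IL-1β mice ILB_9579 and ILB_9582 lay below all saline mice in each kit, whereas IL-1β mouse ILB_9583 lay among or above them. The log2 fold changes of -0.42 in TruSeq (95% confidence interval -1.15 to 0.32), -0.59 in Pico (-1.10 to -0.09) and -0.49 in V4 (-0.99 to 0.01) were not called. The outcome depended on mouse ILB_9583, since without it the log2 fold changes were -0.88, -0.97 and -0.81 with limma-voom q-values of 0.00987, 0.0227 and 0.021. In Pico it also depended on the tool, as edgeR's quasi-likelihood test called the gene with all 6 mice, at a log2 fold change of -0.39 and a q-value of 0.0271, whereas DESeq2 gave a q-value of 0.600. That mouse had the lowest Igfbp1 count and the highest Igfbp2 count of the IL-1β mice in all 3 kits.

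Igfbp3, which encodes the binding protein of the ternary complex, is the neighbour of Igfbp1, and the genes are transcribed towards each other with 3539 bases between them (chr11:7106089-7113926, minus strand, ENSMUSG00000020427). TruSeq gave counts of 162, 134 and 157 after IL-1β and 219, 289 and 209 after saline. Pico gave 54, 43 and 49 against 56, 76 and 38, and V4 gave 75, 62 and 95 against 276, 249 and 81. The groups were separated in TruSeq, whereas saline mouse UNT_9576 lay below or within the IL-1β values in Pico and V4. The log2 fold change was -0.61 ± 0.158 in TruSeq with a limma-voom q-value of 0.0145, which became 0.0559 with TMM factors and 0.0692 without IL-1β mouse ILB_9582. In Pico it was -0.14 ± 0.309 and in V4 -1.20 ± 0.514, with q-values of 0.79 and 0.173. DESeq2 called it in V4 with a q-value of 0.0487, and edgeR's quasi-likelihood test gave 0.0567. Without saline mouse UNT_9576 the V4 log2 fold change was -1.78 with a q-value of 0.00908.

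In liver, Igfbp3 is known as a transcript of non-parenchymal cells, and the summed markers of these cells were lower after IL-1β in all kits. Igfbp3 itself was called lower by limma-voom in TruSeq. In Pico and V4 limma-voom did not call it and its groups overlapped. The summed level of 8 sinusoidal endothelial genes was 280 to 298 CPM in saline and 127 to 170 in IL-1β libraries of TruSeq, where 6 of the 8 were called lower and 1, Lyve1, higher. In Pico this sum was 634 to 651 against 290 to 358, with 4 of 8 lower and 1 higher, and in V4 it was 104 to 152 against 60.9 to 78.1, with 3 of 8 lower. The 8 Kupffer cell genes measured summed to 136 to 229 in saline and 67.3 to 97.7 in IL-1β libraries of TruSeq, 187 to 246 against 103 to 140 in Pico and 102 to 200 against 53 to 83.2 in V4, with 5, 4 and 2 of them lower and 1 higher in TruSeq. The 7 stellate cell genes summed to 288 to 327 against 154 to 201 in TruSeq, 335 to 388 against 219 to 286 in Pico and 268 to 307 against 174 to 204 in V4, with 4, 3 and 2 lower. None of these markers was at 0 in a whole group. Their part in the Igfbp3 values was not tested.

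Igfbp4, which encodes a binding protein of both IGFs, had the highest level of the 10 members (chr11:98902558-98913969, plus strand, ENSMUSG00000017493). In TruSeq its counts were 8514, 9240 and 11445 after IL-1β and 14301, 14905 and 15054 after saline. In Pico they were 3304, 3884 and 3860 against 5676, 6127 and 6137, and in V4 they were 10202, 12124 and 13107 against 16059, 17230 and 19504. All IL-1β mice were below all saline mice in each kit, and the saline mice of TruSeq and Pico differed by little. Igfbp4 fell to 0.675 times the saline level in TruSeq (95% confidence interval 0.567 to 0.802), 0.626 times in Pico (0.558 to 0.702) and 0.673 times in V4 (0.551 to 0.82). The limma-voom q-values were 0.00352, 1.38e-05 and 0.0179. The V4 call was lost with TMM factors, with a q-value of 0.0865, with edgeR's quasi-likelihood test (0.164) and with DESeq2 (0.117). It was also lost without mouse ILB_9579, ILB_9582 or UNT_9575, with q-values of up to 0.0818.

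The share of Igfbp1 in the binding protein transcripts was higher in the IL-1β mice of each kit. It is built from Igfbp1, whose rise is given above, and the part of Igfbp2 to Igfbp4 in it was not tested. As a share of the summed counts per kilobase of exon of Igfbp1 to Igfbp4, Igfbp1 took 36.4%, 17% and 9.64% in IL-1β mice ILB_9579, ILB_9582 and ILB_9583 of TruSeq and 3.97%, 1.29% and 5.21% in saline mice UNT_9574, UNT_9575 and UNT_9576. In Pico the shares were 31.7%, 14.2% and 9.91% against 3.52%, 0.837% and 4.15%. In V4 they were 23.2%, 11.6% and 5.96% against 2.58%, 0.888% and 3.19%. The groups did not overlap. In percentage points the IL-1β mice spread more widely than the saline mice, around a higher mean. The mean was 21.0% ± 13.8 (SD, n = 3) against 3.49% ± 2.01 in TruSeq, 18.6% ± 11.5 against 2.84% ± 1.76 in Pico and 13.6% ± 8.76 against 2.22% ± 1.19 in V4. The two-sided exact permutation test gave p = 0.1 in each kit, the smallest value that 3 mice against 3 can reach, so the share cannot pass a threshold of 0.05 in this design. Without mouse ILB_9579 the difference fell from 17.5 to 9.83 percentage points in TruSeq, from 15.8 to 9.23 in Pico and from 11.4 to 6.57 in V4.

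**Figure D3:**
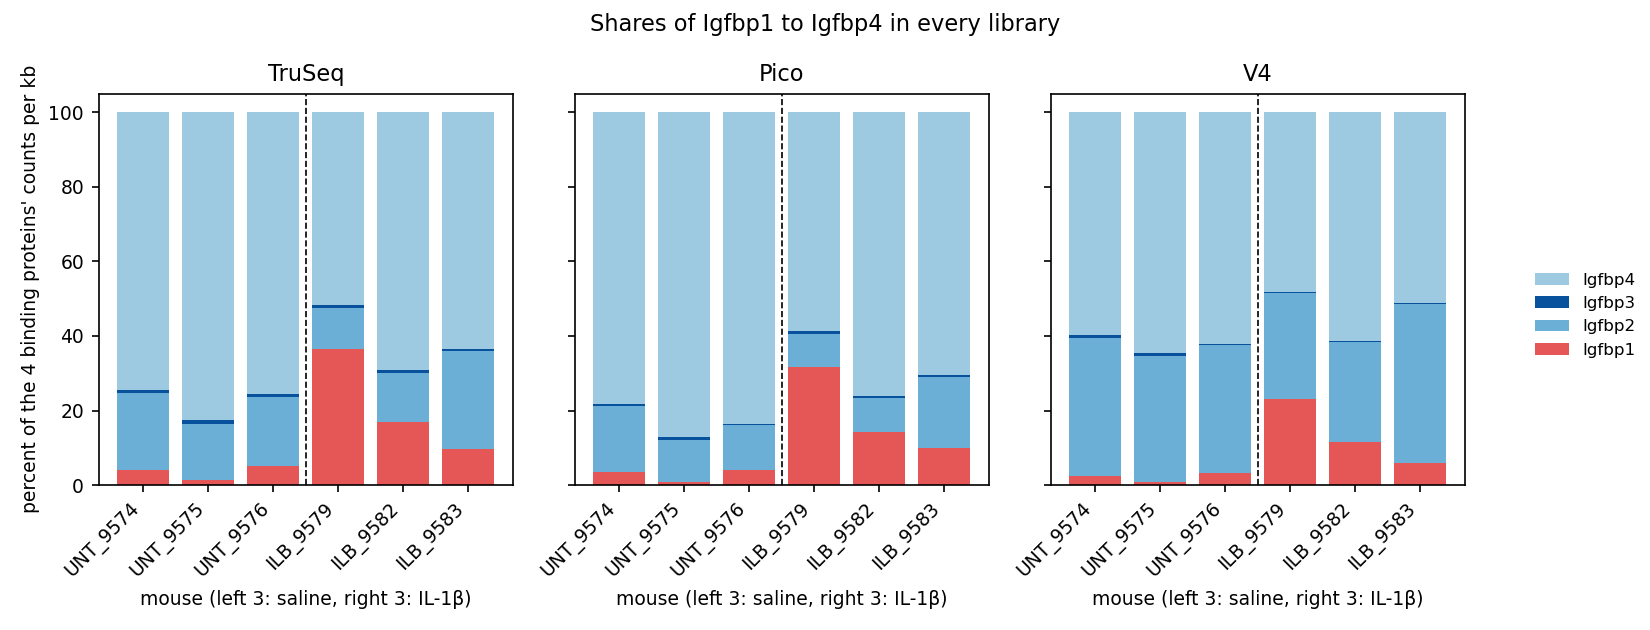
Share of Igfbp1, Igfbp2, Igfbp3 and Igfbp4 (stacked bars, percent of their summed counts per kilobase of exon) in each mouse, by kit, with the 3 saline mice left and the 3 IL-1β mice right of the dashed line. The Igfbp1 share is 0.837% to 5.21% in saline mice and 5.96% to 36.4% in IL-1β mice, and Igfbp3 is a thin band throughout.

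Ordered by CPM per kilobase of exon, the saline livers of TruSeq held Igfbp4 at 489, Igfbp2 at 114, Ghr at 61.5, Igf1 at 58.6, Igfals at 36.5, Igfbp1 at 22.4, Stat5b at 7.26, Igfbp3 at 5.98, Stat5a at 1.57 and Socs2 at 1.21. In this order the ranges of neighbours overlapped for Ghr and Igf1, for Igfals and Igfbp1, for Igfbp1 and Stat5b, for Stat5b and Igfbp3 and for Stat5a and Socs2. After IL-1β the order on the same scale was Igfbp4 at 332, Igfbp1 at 114, Igfbp2 at 94.7, Igf1 at 43.5, Ghr at 33.2, Igfals at 11.4, Stat5b at 5.27, Socs2 at 4.11, Igfbp3 at 3.89 and Stat5a at 1.59. Igfbp1 thus moved from the sixth to the second place of the 10 in TruSeq, with a range that overlapped that of Igfbp2, and the same places were found in Pico. In V4 it moved from the sixth to the third place, at 102 and below Igfbp2 at 259, and their ranges did not overlap. Among all 19424 genes of TruSeq its rank by this level went from 1918 to 419, that of Socs2 from 10173 to 6427 and that of Igfals from 1292 to 3305. Igfbp4 stayed among the most abundant transcripts, at rank 120 after saline and 161 after IL-1β. The divisor was the length of all annotated exons of a gene, from 1525 bases for Igfbp1 to 9921 for Igf1. These places and ranks depend on it. By mean CPM without length, Igf1 at 581 and Ghr at 556 lay above Igfbp2 at 211 in the saline livers of TruSeq.

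The level of some members differed between kits. In saline mice the CPM of Igfbp2 in V4 were 3.02 times and those of Igfals 2.48 times those in TruSeq, and those of Socs2 1.81 times and of Igfbp4 1.25 times, while those of Stat5b were 0.482 times and those of Stat5a 0.572 times. The ratios for Ghr, Igf1, Igfbp1 and Igfbp3 lay between 0.842 and 0.995. In Pico the ratios to TruSeq ran from 0.737 for Igfbp3 to 1.47 for Igf1. The responses were compared by the interaction of kit and treatment in limma-voom, over the 12 libraries of 2 kits. This called 0% of 17207 genes for Pico against TruSeq and 0% of 17147 genes for V4 against TruSeq, and hence none of the 10 members. At an unadjusted p-value below 0.05 there were 945 and 1090 genes. DESeq2 called 4 and 62 genes in the 2 comparisons.

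The intervals show how large a kit difference could still be. The first pair given for a gene ignores that the kits share their mice. The second has the mouse as a block, which removes the differences between mice that all kits share. For Ghr the log2 fold change in Pico minus that in TruSeq was 0.17 (95% confidence interval -0.17 to 0.51) and that in V4 minus TruSeq was 0.26 (-0.16 to 0.69). With the block they were 0.17 (-0.017 to 0.36) and 0.25 (-0.0093 to 0.52), intervals that reached only just below 0. The limma-voom q-values with the block were 0.676 and 0.705. For Igfals the differences were -0.14 (-0.81 to 0.52) and 0.0024 (-0.73 to 0.73), and with the block -0.086 (-0.72 to 0.54) and 0.028 (-0.50 to 0.55). For Igfbp1 they were 0.062 (-1.88 to 2.01) and -0.14 (-2.05 to 1.77), and with the block -0.0091 (-0.32 to 0.30) and -0.14 (-0.50 to 0.23). Igfbp3 had the widest gap between kits among the members, with 0.47 (-0.26 to 1.19) for Pico and -0.59 (-1.80 to 0.62) for V4. With the block these were 0.43 (-0.15 to 1.01) and -0.74 (-1.74 to 0.26).

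Mice kept their rank in several members from kit to kit. For 20 combinations of gene and treatment, the 3 mice had the same order in all 3 kits in 6 and the same highest mouse in 9. The order was fully kept for Igfbp1 in both treatments, for Socs2 and Igf1 after saline, and for Stat5a and Igfbp2 after IL-1β. Mouse ILB_9579 was the highest IL-1β mouse for Igfbp1, Socs2, Igf1 and Stat5a in all kits, and mouse UNT_9576 the highest saline mouse for Igfbp1, Socs2 and Igf1. Since all kits used the same RNA, this order concerns the RNA samples and not further animals.

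**Figure D4:**
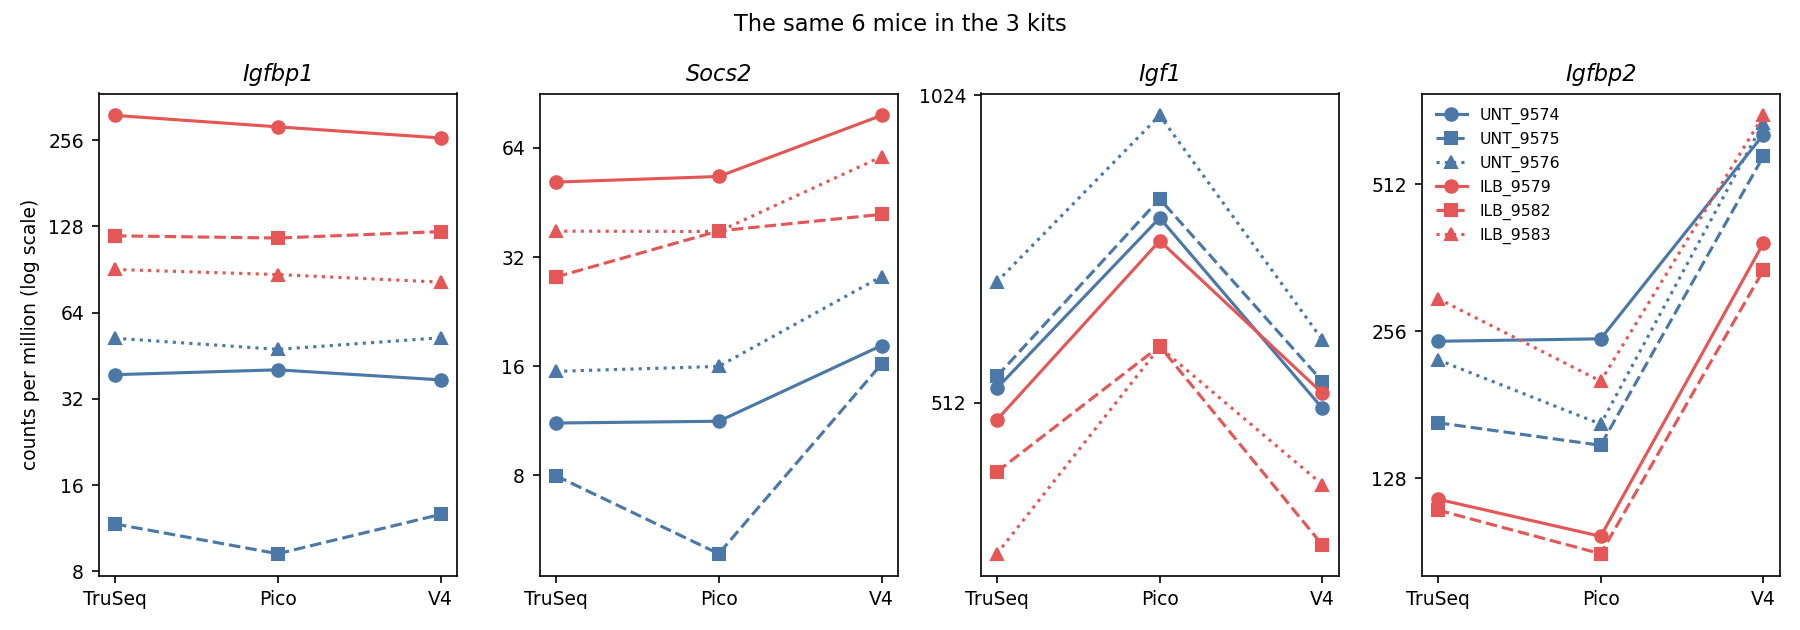
CPM (log axis) of Igfbp1, Socs2, Igf1 and Igfbp2 in the 6 mice, with 1 line per mouse across TruSeq, Pico and V4, blue for saline and red for IL-1β. The Igfbp1 lines do not cross, IL-1β mouse ILB_9583 lies apart from mice ILB_9579 and ILB_9582 for Igfbp2, and the Igfbp2 levels are higher in V4 for all mice.

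Further genes of growth hormone receptor signalling mostly rose where they were called. Of 22 genes on this list 21 were tested, and 7 were higher and 4 lower in TruSeq (12.3% and 21.8% of all genes), 8 and 2 in Pico (6.78% and 10.8%) and 3 and 1 in V4 (3.6% and 7.41%). The shares called lower in TruSeq and Pico were near those of all genes. The list had a median log2 fold change of 0.34, 0.42 and -0.03 beside the medians of all genes given above. Ptpn1, which encodes a phosphatase that acts on Jak2 and the insulin receptor, had counts of 1769, 1703 and 1831 after IL-1β and 390, 326 and 380 after saline in TruSeq, and its log2 fold change was 2.32 in TruSeq, 2.16 in Pico and 2.22 in V4. Stat3, the main transcription factor of the acute-phase response, rose by 1.68, 1.69 and 1.81, and the adaptor Grb2 by 1.0, 0.78 and 1.02 on the log2 scale. All 3 genes were called in every kit, which was a condition for naming them, with limma-voom q-values of at most 0.0191. Their groups did not overlap in TruSeq.

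Irs1, the adaptor through which insulin and IGF-I receptors signal, fell. Its counts were 37, 46 and 41 after IL-1β and 251, 391 and 223 after saline in TruSeq, and 47, 40 and 22 against 240, 297 and 201 in Pico. In V4 all 3 IL-1β libraries had 0 counts and the saline libraries 16, 44 and 23, so no fold change is given for that kit. The log2 fold change was -2.71 ± 0.279 in TruSeq and -2.77 ± 0.311 in Pico, with limma-voom q-values of 9.41e-05 and 1e-05.

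Socs3 and Cish, which encode 2 further inhibitors of cytokine receptors, and Jak2, the gene of the receptor's kinase, behaved differently from each other. Socs3, which interleukins induce, had counts of 1058, 491 and 411 after IL-1β and 191, 54 and 169 after saline in TruSeq, and mouse ILB_9579 was the highest in all kits, as for Socs2. Its log2 fold change was 2.35 ± 0.474 in TruSeq, 1.99 ± 0.443 in Pico and 2.11 ± 0.631 in V4, with limma-voom q-values of 0.00407, 0.00453 and 0.0552. Cish, a further target of Stat5, had TruSeq counts of 200, 275 and 477 after IL-1β and 57, 66 and 461 after saline, Pico counts of 46, 63 and 103 against 27, 10 and 102, and V4 counts of 98, 114 and 247 against 80, 69 and 431. Saline mouse UNT_9576 thus stood apart from the other 2 in each kit, and Cish was not called, with q-values of 0.14, 0.175 and 0.963. Jak2 was called in Pico, where its log2 fold change was 0.97 ± 0.212 with a q-value of 0.00401, and not in TruSeq (0.34 ± 0.178, q-value 0.181) or V4 (0.31 ± 0.561, q-value 0.754), and with TMM factors it was called in TruSeq as well, with a q-value of 0.0486.

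**Figure D5:**
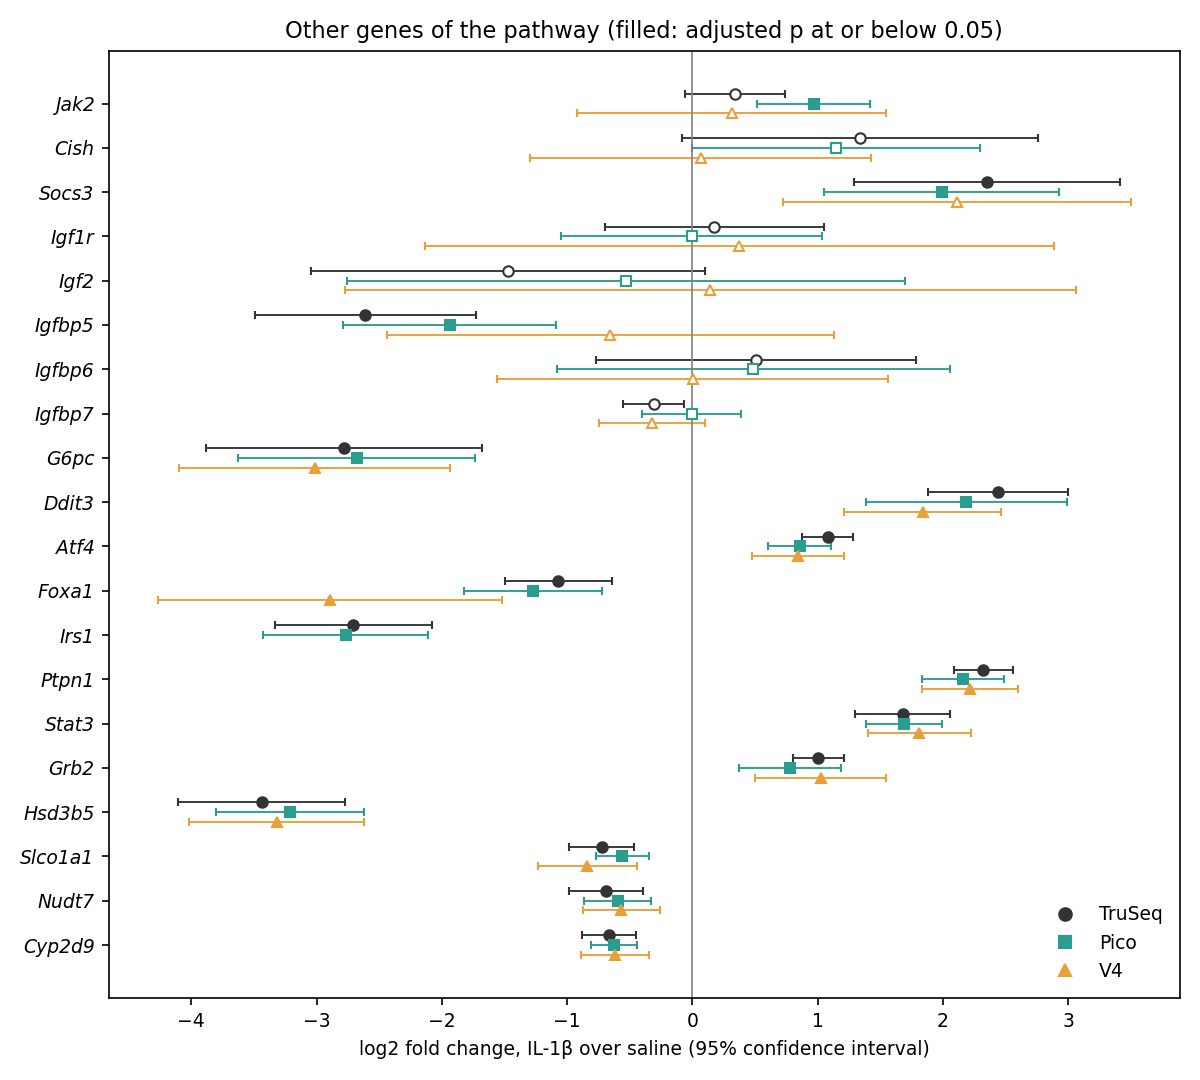
Log2 fold change of IL-1β over saline (x axis) with its 95% confidence interval for further genes of the pathway and of the lists on Igfbp1 regulation and sex-biased genes (y axis) in TruSeq (circles), Pico (squares) and V4 (triangles), filled where the limma-voom q-value was at most 0.05. Ptpn1, Stat3, Grb2, Ddit3 and Atf4 lie right of 0 and G6pc, Foxa1 and Hsd3b5 left of it. Their symbols are filled in all kits, as the choice of these genes required. Irs1 in V4 is left out because its IL-1β libraries were at 0.

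Of 13 other IGF ligands, receptors and binding proteins 12 were tested. In TruSeq 1 was higher and 3 lower (12.3% and 21.8% of all genes), in Pico 1 and 1 (6.78% and 10.8%) and in V4 0 and 1 (3.6% and 7.41%), shares near those of all genes, with median log2 fold changes of -0.07, -0.01 and 0.01. Igfbp5, which encodes a binding protein of the extracellular matrix, had counts of 23, 52 and 39 after IL-1β and 170, 363 and 195 after saline in TruSeq and 23, 41 and 16 against 77, 149 and 82 in Pico. Its log2 fold change was -2.61 ± 0.395 and -1.94 ± 0.403 in these kits, with limma-voom q-values of 0.000811 and 0.00271, whereas V4 gave 8, 10 and 54 against 22, 55 and 15 and a value of -0.66 ± 0.81 with a q-value of 0.678. Igfbp6 and Igfbp7 were not called in any kit, the latter at -0.31 ± 0.108 in TruSeq with a q-value of 0.0519. The transcripts of Igf2 and of the receptor gene Igf1r, which the adult liver hardly expresses, had at most 12 and 33 counts in any library, and neither was called.

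Genes that link starvation, FoxO factors and the stress response to Igfbp1 changed in both directions. Of 15 genes 5 were higher and 3 lower in TruSeq (12.3% and 21.8% of all genes), 4 and 4 in Pico (6.78% and 10.8%) and 4 and 3 in V4 (3.6% and 7.41%), so that the lower ones in TruSeq were near the share of all genes, with median log2 fold changes of 0.11, -0.26 and -0.21. Ddit3 and Atf4, transcription factors of the integrated stress response, rose in all kits. Ddit3 counts in TruSeq were 272, 364 and 479 against 59, 83 and 65, with log2 fold changes of 2.44, 2.19 and 1.84 in TruSeq, Pico and V4, and Atf4 had log2 fold changes of 1.08, 0.86 and 0.84. G6pc, which encodes the last enzyme of glucose release and is repressed by insulin as Igfbp1 is, fell while Igfbp1 rose. Its counts in TruSeq were 634, 509 and 347 against 1445, 3960 and 6964, and its log2 fold changes were -2.78, -2.68 and -3.01. Foxa1, a forkhead factor of liver, fell by 1.07 in TruSeq, 1.27 in Pico and 2.89 in V4 on the log2 scale. These 4 genes were called in every kit, which was a condition for naming them, with limma-voom q-values of at most 0.0141.

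Genes whose level in male mouse liver depends on the pulses of growth hormone were lower where called. Of 18 male-biased genes none was higher, and 9 were lower in TruSeq, 5 in Pico and 4 in V4, beside 21.8%, 10.8% and 7.41% of all genes, with median log2 fold changes of -0.41, -0.25 and -0.34. With TMM factors 6, 5 and 2 were lower, where 6368 of 19424, 3136 of 18108 and 1738 of 18051 genes were called in either direction. The steroid dehydrogenase gene Hsd3b5 fell most, with TruSeq counts of 428, 236 and 149 after IL-1β and 3329, 2838 and 2240 after saline and log2 fold changes of -3.44, -3.21 and -3.32 in TruSeq, Pico and V4. The transporter gene Slco1a1 changed by -0.72, -0.56 and -0.84 and the hydrolase gene Nudt7 by -0.69, -0.60 and -0.57. The cytochrome gene Cyp2d9 changed by -0.67, -0.63 and -0.62. All 4, Hsd3b5 included, were called in each kit, a condition for naming them, with limma-voom q-values of at most 0.0256. Cyp2d9 has close relatives, so reads may be shared with them. Of 17 female-biased genes none was higher, and 5 of 16 tested were lower in TruSeq, 2 of 13 in Pico and 0 of 16 in V4. In TruSeq and Pico this was not far from the 21.8% and 10.8% of all genes. The median log2 fold changes of the female-biased list were -0.49, -1.03 and -0.90, below those of the male-biased list in each kit. A fall was therefore not particular to the male-biased genes.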

How the data were processed

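RNA-Seq was performed on liver RNA of 6 mice with 3 kits. Per the labels and the methods of the study, the authors aligned reads to mm9 with GSNAP, removed ribosomal reads and used PORT to resample the libraries of a kit to the same depth. The deposited values are whole-number read counts per gene, sense reads for TruSeq and Pico and both strands together for V4, 1 table per kit. Resampling fixes the total of a library, so counts are relative to that total. Which of 2 Pico preparations the table holds is not given in the sources used here. Intervals are over mice, and read counts carry no molecular identifiers.

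Treatments were compared kit by kit with limma-voom on library totals (limma 3.58.1 in R 4.3.3), without further normalization, over genes above 0 in at least 1 library, with Benjamini-Hochberg adjustment and a q-value cutoff of 0.05. The response was compared between kits by an interaction term. Shares were compared by an exact permutation test. The alternatives were TMM factors in voom, edgeR's quasi-likelihood test (edgeR 4.0.16), DESeq2 (1.42.0), at least 10 counts in 3 libraries, cutoffs of 0.1 and 0.01, thinning to 4024632 counts (5 draws), leaving out each mouse, and, for shares, raw counts without length. The fits were tested on simulated data. Gene positions came from the GENCODE annotation of mm9, and promoter windows from RefSeq (GRCm38.p6). Summaries used Python 3.11.15.

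The same 6 mice entered each kit, so libraries pair by mouse. Over 8960 genes, deviations from the group means correlated for the same mouse at 0.188 to 0.427 in TruSeq with Pico, at 0.133 to 0.397 in TruSeq with V4, at 0.0597 to 0.207 in V4 with Pico, and at -0.340 to -0.0212 for other mice. The deviations of a gene within a group sum to 0. The negative values for other mice therefore follow in part from the positive ones for the same mouse.

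The members and the gene lists were chosen with earlier results of these data known. Named genes are the 10 members, Jak2, Cish, Socs3, Igf1r, Igf2, Igfbp5, Igfbp6 and Igfbp7, and up to 4 genes of each other list with the largest change in TruSeq among those called in 1 direction in all kits. Tat and Lyve1 were named after their values were seen.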

Additional observations from a re-analysis of the deposited data

How the results depend on the processing

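Of 390 values of single genes under the alternatives, 329 kept their direction and their side of the threshold, 44 kept their direction and lost the call, 6 gained it and 11 changed sign. The alternatives include the cutoffs of 0.1 and 0.01 on the main fit, where no direction could change. They also include thinning to 4024632 counts, which altered the Pico libraries of 4024632 to 4134070 counts little. The number of unchanged values is raised by such settings. Ghr, Socs2, Igfals and Igfbp4 were called in TruSeq and Pico under all settings, and in V4 this held for Igfals. In V4, 3 members were called and 1 was lower with TMM factors and with edgeR, and at a cutoff of 0.01 it was 2 called, 1 higher and 1 lower. Of all 18051 genes of V4 these settings called 1738, 1932 and 764, beside 1986 in the main fit. Stat5a turned positive in TruSeq with TMM factors (0.11), edgeR (0.17) and DESeq2 (0.17), and in Pico with TMM factors (0.095), edgeR (0.099) and DESeq2 (0.094).

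With 1 mouse left out, 6 to 8 members were called in TruSeq (1 to 2 higher, 4 to 6 lower), 4 to 6 in Pico (1 to 2 higher, 3 to 4 lower) and 1 to 6 in V4 (0 to 2 higher, 1 to 4 lower). The lowest V4 number of members, with Igfals alone, came without saline mouse UNT_9575, and the highest without saline mouse UNT_9576. Over all genes 5114 to 5606 were called in TruSeq, 1765 to 2603 in Pico and 908 to 2093 in V4. With all mice it was 6614, 3179 and 1986. The V4 extremes over all genes came without the same 2 saline mice. With 1 mouse left out the log2 fold change of Stat5a ran from -0.35 to 0.20 in TruSeq and from -0.13 to 0.0498 in Pico. That of Igfbp3 in Pico ran from -0.40 to 0.097. The cause was not tested.

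With the mouse as a replicate block, 0 members were called in the interaction with Pico and 0 with V4, as without it. The blocked difference of Ghr was 0.17 in Pico and 0.25 in V4, and that of Igfbp3 was 0.43 and -0.74. The pairing changed no member's call. Over all genes the block called 1 gene for Pico and 0 for V4.

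Counts of up to 76 for Igfbp3 and 73 for Stat5a in Pico, and of up to 140 for Stat5a in V4, limit what these kits can show for these genes, and 3 mice in each group limit all tests.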

Other observations

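Acute-phase proteins are made by the liver and secreted into blood during inflammation. All 10 genes of a list of acute-phase proteins were called higher in each kit, with a median log2 fold change of 5.46 in TruSeq, 5.29 in Pico and 5.53 in V4. Lcn2, which encodes an iron-siderophore binding protein, had TruSeq counts of 44980, 48283 and 55197 after IL-1β and 54, 65 and 91 after saline. The serum amyloid genes Saa2, whose reads are uncertain because of its near-identical neighbour Saa1, and Saa3 had log2 fold changes of 8.28 and 9.30 in TruSeq. A2m had 1736 to 2564 counts after IL-1β and 0 to 3 after saline in that kit.

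Marker transcripts of other cell types were measured as well. The neutrophil list summed to 1.80 to 3.08 CPM after saline and 41.4 to 83.8 after IL-1β in TruSeq, 0.242 to 1.71 against 31.9 to 48.5 in Pico and 2.07 to 4.66 against 41.6 to 81.3 in V4, with 5 genes called higher in each kit, of 6 measured in TruSeq and 5 in Pico and V4. Ly6g in TruSeq, Retnlg, Cxcr2 and Mmp8 in Pico and Mmp8 in V4 were at 0 in all saline libraries. Lymphocyte genes summed to at most 5.24 CPM in any library, with 2 of 7 lower in TruSeq and none called in Pico or V4. Of 5 cholangiocyte genes 2 were higher and 1 lower in TruSeq, 1 was higher in Pico and none was called in V4. Of all genes 12.3% were called higher and 21.8% lower in TruSeq, 6.78% and 10.8% in Pico and 3.6% and 7.41% in V4. The lower calls of the lymphocyte and cholangiocyte lists in TruSeq were near the share of all genes.

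Saline mouse UNT_9576 had the highest counts of its group for Cish, Socs2, Igf1, Igfbp1 and G6pc in all 3 kits. Saline mouse UNT_9575 had the lowest counts of its group for Igfbp1, Socs2, Socs3 and Stat3 in all 3 kits. The Igfbp1 counts of the 3 saline mice ran from 150 to 670 in TruSeq, and those of Cish from 57 to 461.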
